A study of Homo sapiens with 4 samples.

Results

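The genes described here encode subunits of RNA polymerases I, II and III, the Mediator complex, the TATA-binding protein-associated factors (TAFs) and the general transcription factors. Members were the rows of a table of skipped exons whose gene symbol begins with POLR1 to POLR3, MED plus a digit, TAF plus a digit, or GTF2 or GTF3, with a mean of at least 20 junction reads over 4 libraries. Of 591 rows with such a symbol, in 100 genes, 538 in 98 genes passed that minimum and 53 did not. The whole table held 65601 rows, of which 54503 passed. The member just under the minimum had a mean of 19.25 reads and the one just over it 21. Each row is an event: a middle exon that is either joined to both neighbours or skipped. The 538 events covered 431 distinct exons, and 194 of them shared their exon with another member event, so events are not independent of each other.

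The cells were HEK293T, an established line of human embryonic kidney origin. One group of 2 libraries received a gapmer antisense oligonucleotide (ASO) against SNORD89, a C/D box small nucleolar RNA, at 70 nM by lipid transfection (a gapmer is a modified DNA strand through which RNase H cuts the RNA it pairs with). The other group of 2 libraries received no ASO; its samples list the transfection steps too, which leaves unclear whether the lipid was added, and no control ASO is named. All 4 cultures got fresh medium at 24 hours and were harvested for RNA at 48 hours, and the labels call the replicates biological. Neither the table nor the labels say which of its 2 sets was treated, so differences are given as first set minus second set, with no direction of the treatment. Libraries are named by their place in a set (library 1, library 2), which pairs nothing across sets.

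RNA polymerase I makes ribosomal RNA precursor, RNA polymerase II makes messenger RNA, and RNA polymerase III makes transfer RNA and other short RNAs. General transcription factors place a polymerase at a promoter, TAFs form TFIID around the TATA-binding protein for RNA polymerase II and SL1 for RNA polymerase I, and Mediator passes signals from bound activators to RNA polymerase II. An exon skipped within the coding part keeps the reading frame only where its length is a multiple of 3.

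Sequences of 5 coding exons show what the inclusion values below count: 2 are exons of called events (MED15, TAF1A) and 3 are deeply covered exons that are often skipped or partly skipped (MED24, TAF6, GTF3C5). Capitals mark the middle exon and lower case the 10 bases of transcript on each side, which belong to the neighbouring exons. They were copied from GENCODE release 29 transcripts (GRCh38), in which each exon was found by its length and the spacing of its neighbours within the gene; positions are those of the table, in hg19. MED15 lies at chr22:20929400-20929519 on the plus strand, TAF1A at chr1:222753101-222753214 on the minus strand, MED24 at chr17:38191169-38191225 on the minus strand, TAF6 at chr7:99710972-99711028 on the minus strand and GTF3C5 at chr9:135930331-135930351 on the plus strand.
MED15 120-nt exon: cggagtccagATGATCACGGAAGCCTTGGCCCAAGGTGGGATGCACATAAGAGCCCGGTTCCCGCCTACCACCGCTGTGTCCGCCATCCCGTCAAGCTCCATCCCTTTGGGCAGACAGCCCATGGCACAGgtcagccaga
TAF1A 114-nt exon: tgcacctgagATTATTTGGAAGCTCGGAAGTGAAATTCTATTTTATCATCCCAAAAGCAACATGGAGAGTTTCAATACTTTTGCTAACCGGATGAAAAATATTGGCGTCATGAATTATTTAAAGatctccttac
MED24 57-nt exon: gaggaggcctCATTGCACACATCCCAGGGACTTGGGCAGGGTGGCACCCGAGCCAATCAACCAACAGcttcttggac
TAF6 57-nt exon: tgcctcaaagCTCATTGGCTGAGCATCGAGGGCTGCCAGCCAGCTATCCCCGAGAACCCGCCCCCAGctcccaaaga
GTF3C5 21-nt exon: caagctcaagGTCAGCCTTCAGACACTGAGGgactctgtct
All 5 lengths are multiples of 3, so skipping any of them leaves the frame of the flanking exons intact.

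In most member events the middle exon was included nearly always. The inclusion level is the share, from 0 to 1, of an event's junction reads that belong to the form with the exon. The reads of each form are first divided by its length. The level refers to that event's neighbouring exons only, so the same exon can have different levels in different events. A mean level above 0.95 was found for 405 of 538 member events (75.3%), against 66.1% of all tested events. A level between 0.05 and 0.95 was found for 88 member events (16.4%) in 38 genes, against 24.6% of all tested events, and 45 (8.36%) lay under 0.05, against 9.30%. The median member event had a mean of 270 reads, against 190 over all tested events, and the median exon length was 114 nt, against 118 nt. The 59 of 88 intermediate members (67.0%) whose skipping junction is annotated compare with 80 of 405 (19.8%) among members above 0.95. Over all tested intermediate events the annotated share was 65.5%, near that of members.

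Among fully coding member exons, each counted 1 time, 23 of 40 with an intermediate level (57.5%) had a length that is a multiple of 3, against 101 of 272 above 0.95 (37.1%). Over all tested coding exons the shares were 51.4% and 40.4%. These are descriptions without a test.

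**Figure D1:**
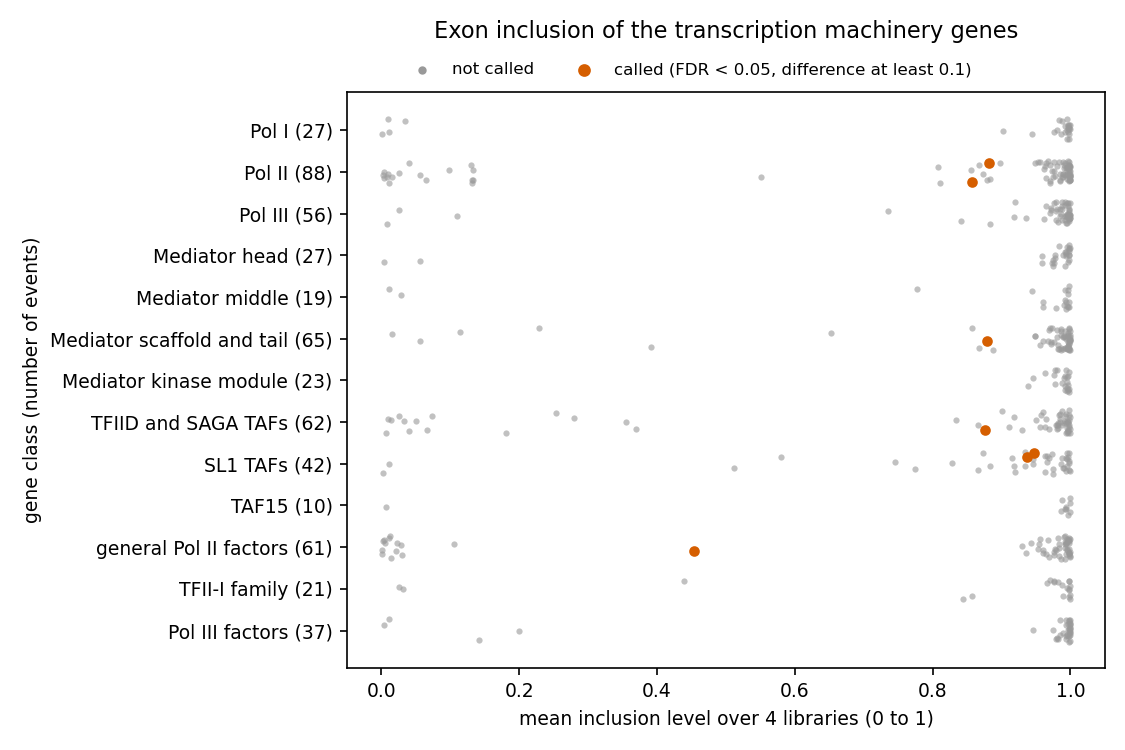
Mean inclusion level over the 4 libraries (x axis, 0 to 1) of the 538 member events, 1 point per event, by gene class (y axis, with the number of events). Most points sit near 1; orange points are the 7 called events, which lie in 5 of the 13 classes.

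The classes differed in how many of their events were intermediate. SL1 TAFs, the factors of RNA polymerase I promoters, had 17 of 42 events between 0.05 and 0.95, in all 4 of their genes, and their median level was 0.965. TFIID and SAGA TAFs had 15 of 62 and RNA polymerase II subunits 20 of 88. The Mediator scaffold and tail, which contacts activators, had 11 of 65. The Mediator head, which contacts the polymerase, had 1 of 27, the Mediator middle 2 of 19 and the Mediator kinase module 2 of 23. Pol III subunits had 7 of 56, Pol III factors 3 of 37, Pol I subunits 2 of 27, general Pol II factors 5 of 61 and the TFII-I family 3 of 21. TAF15, a FET family RNA-binding protein, had 0 of 10. These are counts of events, some of which share an exon: the 42 of SL1 TAFs covered 28 exons and the 37 of Pol III factors 31. Depth differed too, with a median of 136 reads for SL1 TAFs and 689 for Pol III factors. The counts were not tested against each other.

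Member events took 276333 and 266393 junction reads in the libraries of the first set and 272477 and 276150 in those of the second, out of totals between 38613055 and 43929373. Library 2 of the second set stood apart. Of 511 member events with at least 20 reads in every library, 302 (59.1%) were at a level of exactly 1 in it, against 162, 172 and 163 in library 1 and 2 of the first set and library 1 of the second. Over all 48907 such events the shares were 54.4% in that library and 29.4%, 31.2% and 35.4% in the others. Among the 88 intermediate members the median gap in level was 0.0360 between the libraries of the first set and 0.0714 between those of the second. Over all tested intermediate events these gaps were 0.0494 and 0.0876. Between libraries of different sets the median gaps of members ran from 0.0337 to 0.0667, all smaller than the gap within the second set. For many of the events named below, though not all, the difference is given with and without library 2 of the second set.

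Few member events were called as different between the sets by the authors' test, and the called ones were mostly shallow. The authors' deposited table gave an FDR (their rMATS p-value adjusted over all events) under 0.05 with an absolute difference of at least 0.1 for 7 member events (1.30%), in 5 genes, against 2.71% of all tested events: 2 were higher in the first set and 5 lower. Of the 88 intermediate members 7 were called (7.95%), against 11% of all intermediate events. At an FDR under 0.05 of any size there were 17 member events (3.16%) in 13 genes, against 5.72% of all tested events, of which 7 had the higher level in the first set and 10 in the second. The levels of the sets did not overlap for 111 member events (20.6%), against 22.9%. The median absolute difference was 0.008 over members and 0.011 over all tested events. Called members had a median of 39 reads per library and other members 274. The skipping junction was annotated for only 2 of the 7 called members and 6 of the 17 at an FDR under 0.05. The matching shares over all tested events are not given here.

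A quasi-binomial model, whose error term comes from the scatter among libraries of a set, called 0 member events at an adjusted p under 0.05 and an absolute difference of at least 0.1, against 0.0165% of all tested events. Its smallest adjusted p among members, after Benjamini-Hochberg adjustment over all tested events, was 0.225. Its unadjusted p was under 0.05 for 20 member events (3.72%), against 6.72% of all tested events, and 3 of the 7 called events were among them. A second version of this model, with its dispersion prior fitted to deep events and written after the first version's results were seen, also called 0 members; its unadjusted p was under 0.05 for 6 (1.12%), against 2.25% of all tested events. By limma on log2 ratios 0 members passed and 16 had an unadjusted p under 0.05 (2.97%), against 4.87% of all tested events. With 2 libraries a set, no such count shows that members did not differ.

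**Figure D2:**
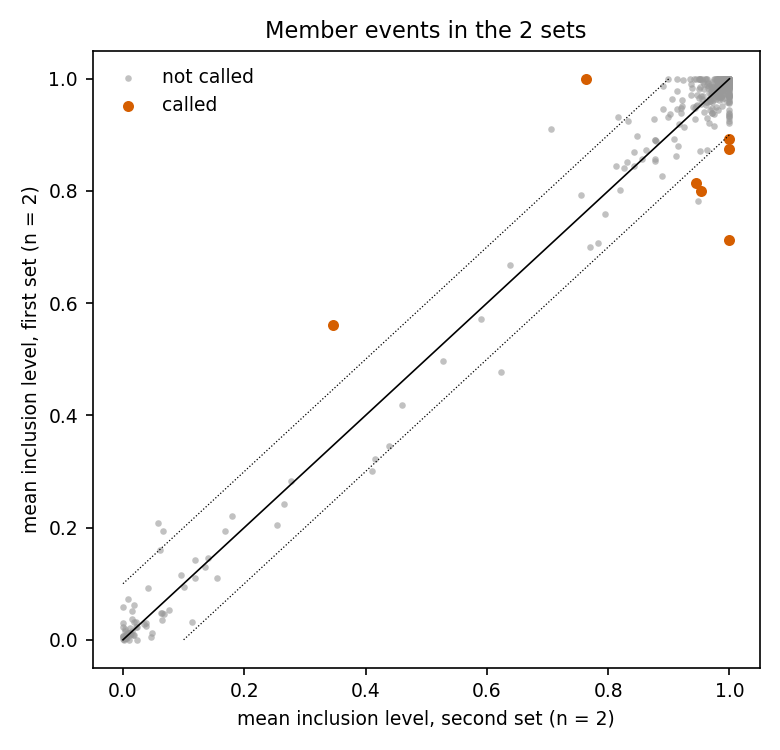
Mean inclusion level of each member event in the second set (x axis) and the first set (y axis), each the mean of 2 libraries. The solid line marks equal levels, the dotted lines a difference of 0.1, and orange points are the 7 called events; most other points lie between the dotted lines.

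Among the general factors, GTF2H2C, a near-identical relative of the TFIIH subunit gene GTF2H2, had the called event whose libraries were closest within each set. Its 98-nt exon at chr5:68858500-68858597 (plus strand), non-coding in the matched transcript, was at 0.565 and 0.557 in the first set, against 0.345 and 0.345 in the second. The 95% Wilson intervals, which cover counting error only, ran from 0.479 to 0.647 and from 0.457 to 0.652 in the first set, and from 0.270 to 0.430 and from 0.229 to 0.485 in the second. Both libraries of the first set were higher, and the levels did not overlap. The difference was 0.216 (FDR 0.00484, both from the authors' deposited table), and it was 0.215 without library 2 of the second set. The quasi-binomial adjusted p was 0.502. The same exon counted with an upstream exon that ends elsewhere was at 0.984, 0.941, 0.946 and 1, with a difference of -0.011. Reads of GTF2H2, GTF2H2B and GTF2H2C may be divided among the copies by the alignment, so these values are uncertain.

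Among TFIID subunits, TAF6, which carries a histone fold, had a called 132-nt exon at chr7:99716141-99716272 (minus strand), non-coding in the matched transcript. Its level was 0.757 and 0.841 in the first set, against 0.907 and 1 in the second, from 62, 33, 39 and 66 reads. Both libraries of the second set were higher. The difference was -0.155 (FDR 0.00842, both from the authors' deposited table), and -0.108 without library 2 of the second set. The deepest other event with this exon was at 0.337, 0.228, 0.181 and 0.373, with a difference of 0.006 (FDR 1). Of the 4 events with this exon, 1 was called.

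MED15, a Mediator tail subunit bound by activators, had a called event on the 120-nt exon shown above. Its level was 0.784 and 0.845 in the first set, against 0.888 and 1 in the second, and the skipping form had 9, 6, 3 and 0 reads. Both libraries of the second set were above both of the first. The difference was -0.129 (FDR 0.0189, both from the authors' deposited table); it was -0.0737 without library 2 of the second set and -0.0992 without library 1 of the first set, both under the threshold of 0.1. With the adjacent downstream exon the same exon was covered by more reads and was at 0.363, 0.326, 0.376 and 0.50, with a difference of -0.093 (FDR 0.351). There the single high value was library 2 of the second set. With another downstream exon it was at 1, 1, 0.888 and 1, a difference of 0.056 in the other direction (FDR 1).

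TAF1A, a subunit of SL1, had called events on 2 overlapping exons of 114 and 132 nt that share a skipping junction. The 114-nt exon was at 0.786 in library 1 of the first set and at 1 in the other 3 libraries. The 132-nt exon was at 0.750 and at 1 in the same way. All skipping reads, 6 in number, came from library 1 of the first set, and the second set had 12 and 15 reads on each event. The differences were -0.107 and -0.125, where the authors' deposited table has FDR values of 0.0372 and 0.0310. Without library 1 of the first set both differences were 0, and without library 2 of that set they were -0.214 and -0.250. Joined to another neighbouring exon, the 114-nt exon was at 0.583, 0.832, 0.768 and 0.799, with a difference of -0.076 (FDR 1).

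POLR2J4, a non-coding relative of the RNA polymerase II subunit gene POLR2J, had called events on 2 exons in opposite directions. The 87-nt exon at chr7:44053192-44053278 (minus strand) was at 0.869 and 0.558 in the first set, against 1 in both libraries of the second, with a difference of -0.286 (FDR 0.000303, both from the authors' deposited table). The libraries of the first set lay apart, and the difference was -0.131 without library 2 of that set and -0.442 without library 1. With 2 other neighbouring exons the same exon differed by -0.075 and -0.018, each with an FDR of 1. The 132-nt exon at chr7:44005863-44005994 (minus strand) was at 1 in 3 libraries and at 0.527 in library 2 of the second set, with a difference of 0.236 (FDR 0.0119, both from the authors' deposited table). Its difference was 0 without that library and 0.473 without library 1 of the second set. The POLR2J family has near-identical copies, so reads may be shared among them.

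**Figure D3:**
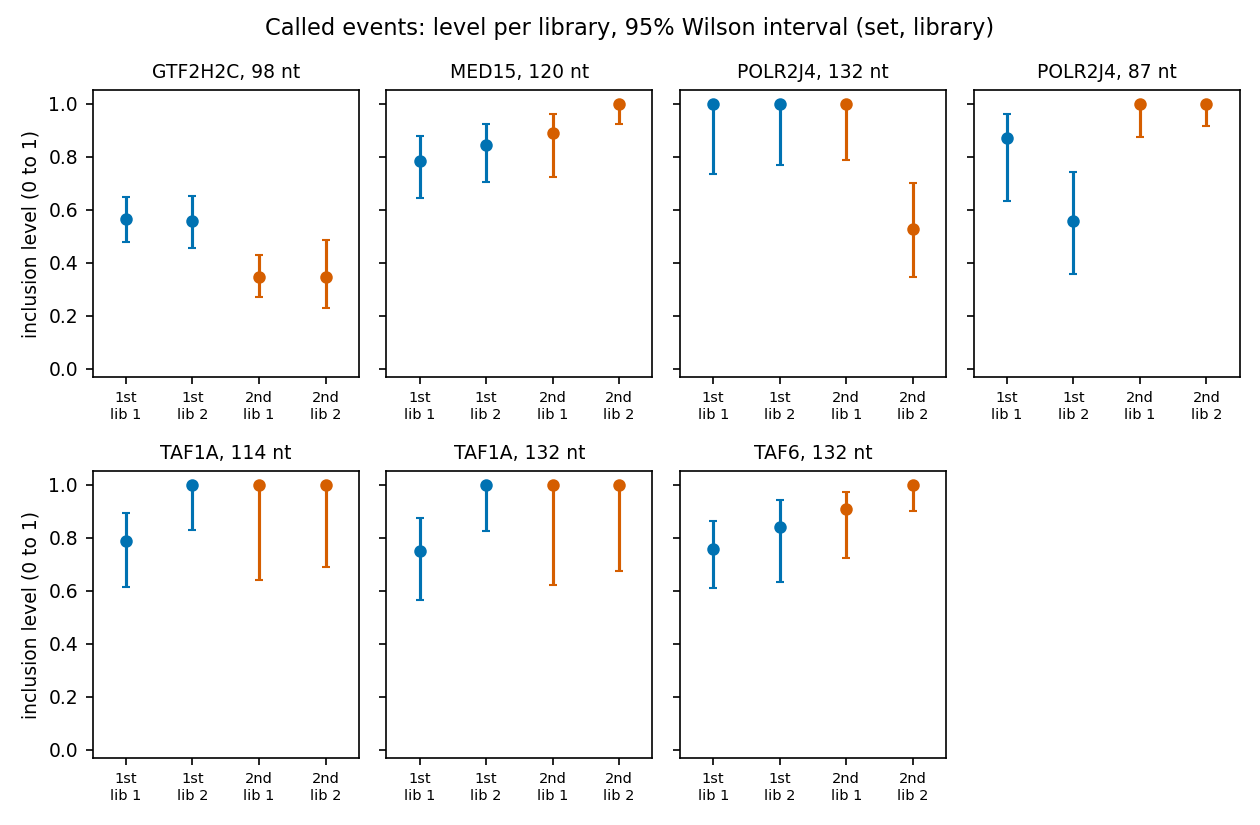
Inclusion level (y axis, 0 to 1) of the 7 called events in each library (x axis; blue, first set; orange, second set), with 95% Wilson intervals that cover counting error only. GTF2H2C is the panel in which both libraries of a set lie close together and away from the other set; in both TAF1A panels and the 132-nt POLR2J4 panel 1 library stands alone.

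The other 10 events at an FDR under 0.05 differed by less than 0.1. GTF2H1, a TFIIH core subunit, had a 166-nt coding exon at 0.995, 1, 0.980 and 0.867, with a difference of 0.074 (FDR 9.21e-05, both from the authors' deposited table). It had the smallest quasi-binomial adjusted p among members, 0.225, and its difference was 0.0176 without library 2 of the second set and 0.130 without library 1. GTF2H2 had a 40-nt coding exon at 0.942, 0.90, 1 and 1, with a difference of -0.079 that was the same without that library. GTF2F2, the small subunit of TFIIF, had an 82-nt exon at 1 in 3 libraries and 0.904 in library 2 of the second set. Its difference was 0.0480, and 0 without that library.

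Within SL1, TAF1B was at 0.893, 0.938, 0.95 and 1 on a 154-nt exon. TAF1C was at 0.982, 1, 0.904 and 0.970 on an 82-nt exon. The sets did not overlap in either gene, and the differences were -0.0597 and 0.0543. That of TAF1B was -0.0349 without library 2 of the second set and -0.0376 without library 1 of the first. That of TAF1C was 0.0214 without library 1 of the second set and 0.0871 without library 2. Within TFIID, TAF2 was at 0.901, 0.989, 0.963 and 1 on a 111-nt exon; its difference of -0.0371 was 0.00677 without library 1 of the first set and -0.0189 without library 2 of the second. TAF4B was at 0.0335, 0.111, 0.0165 and 0 on a 120-nt exon; its difference of 0.0639 was 0.0252 without library 2 of the first set and 0.103 without library 1. TAF12 was at 0, 0.00978, 0 and 0.0914 on an 85-nt exon. TAF12 was highest in library 2 of the second set, and its difference changed from -0.0408 to 0.00489 without it. MED15 had 2 further events, a 351-nt exon at 0.939, 0.977, 0.991 and 1 and a 137-nt exon at 0.984, 0.982, 1 and 0.876. The difference of the 351-nt exon was -0.0375, and -0.0188 without library 1 of the first set. For the 137-nt exon the difference changed from 0.0447 to -0.0171 without library 2 of the second set. Among the 17 events, leaving out that library kept the sign in 13, gave 0 in 2 and turned it in 2; leaving out library 1 of the first set kept it in 14, gave 0 in 2 and turned it in 1.

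**Figure D4:**
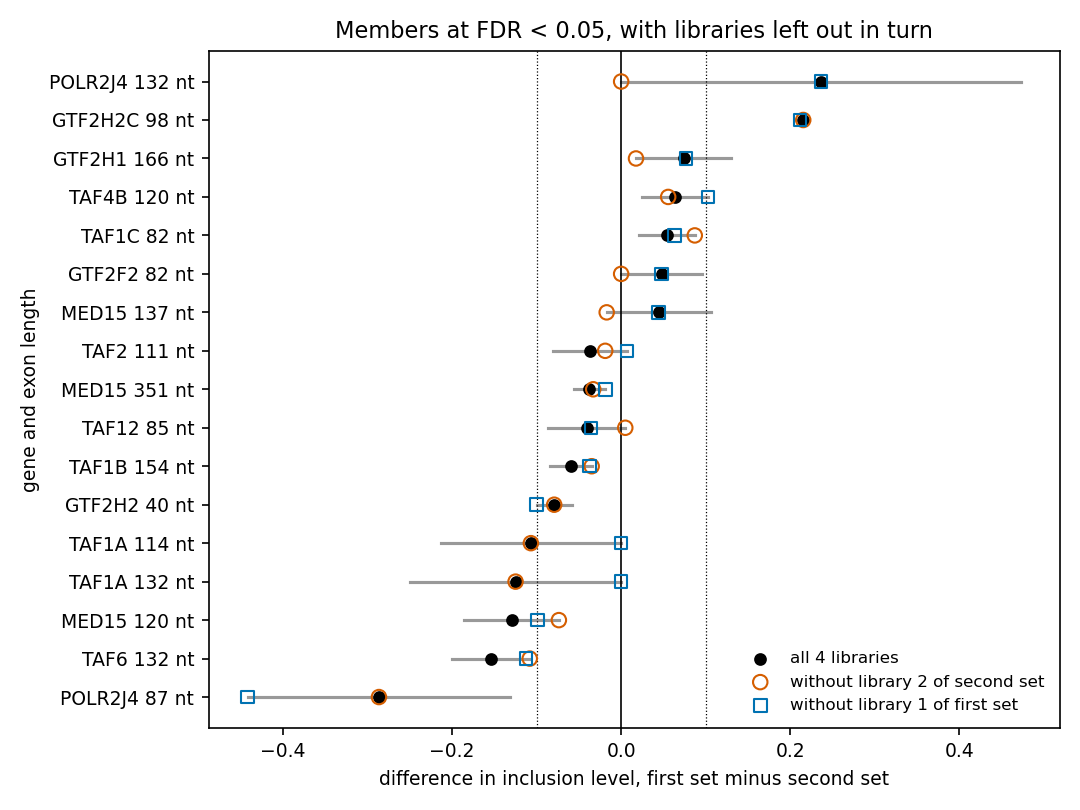
Difference in inclusion level, first set minus second set (x axis), of the 17 member events at an FDR under 0.05 (y axis, gene and exon length). Black points use all 4 libraries, open circles leave out library 2 of the second set, open squares leave out library 1 of the first set, grey lines span the 4 values with 1 library left out, and dotted lines mark 0.1 in either direction; 132-nt POLR2J4 falls to 0 without the first of these and both TAF1A events without the second.

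The deepest alternative exons of each class, taken among events at a level of 0.1 to 0.9, are given next. Their depth varied, with a mean of 895.75 reads for GTF3C5 and 24 for GTF2A2. GTF3C5, a subunit of TFIIIC, had its 21-nt exon at 0.157, 0.133, 0.142 and 0.138, and the intervals of all 4 libraries overlapped. MED16, a Mediator tail subunit, had a 207-nt exon at 0.842, 0.872, 0.875 and 0.879. Its sets did not overlap, with a difference of -0.0199. MED31, of the Mediator middle, had a 97-nt exon at 0.806, 0.712, 0.809 and 0.781, where library 2 of the first set was lowest.

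For several deep exons the value farthest from the others was again library 2 of the second set. MED24 had its 57-nt exon at 0.205, 0.203, 0.197 and 0.310. POLR2D, a polymerase II subunit of the stalk, had a 181-nt exon at 0.896, 0.899, 0.906 and 0.789. GTF2I, which encodes TFII-I, had a 63-nt exon at 0.430, 0.407, 0.429 and 0.491; the gene has near-identical copies, and the exon found no match in the annotation. Their differences over all libraries were -0.0490, 0.0495 and -0.0418, and without that library 0.00727, -0.00890 and -0.0108. None of the 3 reached an FDR of 0.05.

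In 6 other deep exons the sets overlapped, except in TAF1C. TAF6 had its 57-nt exon at 0.908, 0.775, 0.780 and 0.872. The 155-nt exon of POLR2J3, another relative of POLR2J, was at 0.113, 0.145, 0.167 and 0.105. MED15 had a 213-nt exon at 0.846, 0.868, 0.784 and 0.928. POLR3GL, a polymerase III subunit, had a 69-nt exon at 0.817, 0.887, 0.806 and 0.857. TAF2 had a 156-nt exon at 0.210, 0.274, 0.278 and 0.254. TAF1C had a 135-nt exon at 0.856, 0.851, 0.894 and 0.860, with both libraries of the second set above both of the first and a difference of -0.0233. The FDR was 1 for these 6 events.

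A further 7 events complete the deepest alternative exons of the classes. TAF1, the largest TFIID subunit, had a 102-nt exon at 0.263, 0.339, 0.492 and 0.330, a difference of -0.110 with an FDR of 0.551. It was high in library 1 of the second set, and the difference was -0.0296 without it and -0.191 without library 2. POLR2G, the stalk partner of POLR2D, had a 325-nt exon at 0.923, 0.925, 0.831 and 0.836, a difference of 0.091 with an FDR of 0.218. The sets did not overlap, and the difference stayed between 0.0880 and 0.0935 with each library left out in turn. GTF2IRD1, a TFII-I relative, had a 102-nt exon at 0.824, 0.828, 0.908 and 0.871, with sets that did not overlap and an FDR of 0.688. A 57-nt form of that exon, with the same neighbours, was at 0.863, 0.825, 0.893 and 0.794, and its sets overlapped. GTF3C2, of TFIIIC, had a 319-nt exon at 0.267, 0.175, 0.233 and 0.126; its difference of 0.0413 was -0.0119 without library 2 of the second set. The 48-nt exon of TAF1D was at 0.917, 0.864, 0.945 and 0.808, lowest in library 2 of the second set; its difference was 0.0142, and -0.0541 without that library. POLR3E had an 84-nt exon at 0.163, 0.158, 0 and 0.121, with sets that did not overlap and an FDR of 0.650. GTF2A2, a TFIIA subunit, had a 219-nt exon at 0.120, 0.111, 0.0345 and 0.156, from only 14, 30, 15 and 37 reads. Joined to another neighbouring exon, the same exon had a mean of 1227.5 reads and was at 0.00239, 0.00503, 0.00115 and 0.00450. None of these 7 passed an FDR of 0.05.

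**Figure D5:**
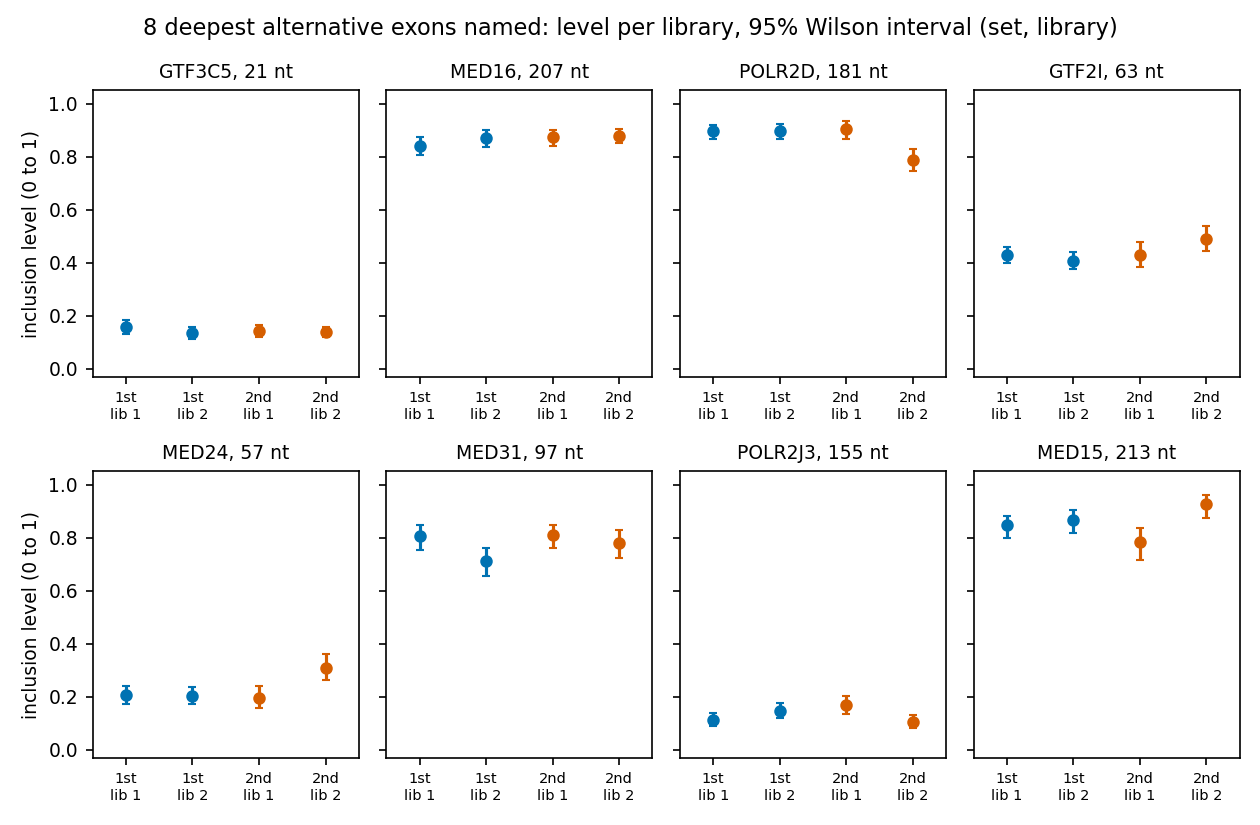
Inclusion level (y axis, 0 to 1) per library (x axis; blue, first set; orange, second set) of the 8 events with most reads among the deep alternative exons, with 95% Wilson intervals. GTF3C5 and MED16 vary little across libraries, while library 2 of the second set stands away in POLR2D and MED24. In GTF2I that library is highest, but its interval overlaps those of library 1 in both sets.

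Partner genes of the same machinery that the symbols do not match were counted the same way. Of 50 symbols, 42 genes had tested events, 211 in number. Of these, 2 were called (0.948%, against 2.71% of all tested events), 1 in each direction, and 10 had an FDR under 0.05 (4.74%, against 5.72%). BRF1, a TFIIIB subunit, had a 150-nt exon at 0.954, 0.928, 0.864 and 0.779, with a difference of 0.120 (FDR 0.0169, both from the authors' deposited table). CRCP, a polymerase III subunit, had a 37-nt exon at 0.445, 0.800, 1 and 1 from 24, 30, 14 and 16 reads. No event was called among the Mediator kinase, TATA-binding, TFIIH, Pol I or elongation partners, where 2, 0, 6, 2 and 13 events were intermediate.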

How the data were processed

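Per the labels' protocols, libraries came from poly(A) RNA and were read from both ends for 150 bases. The submitters' processing notes name cutadapt, STAR and hg19. Per the file headers, the table has the rMATS layout for skipped exons, counted on junction reads; the rMATS version and settings are not given in the sources used here. Inclusion and skipping reads of a set's 2 libraries share a cell. The inclusion level per library and the difference, a signed score, were made by the authors from these reads, and the p-value and FDR are the authors' deposited rMATS values. Recomputed levels differed by at most 0.0005, differences by at most 0.00137 and FDR values by at most 1.11e-16. Differences with a library left out were recomputed from the reads.

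The members, classes, partner list and naming rule were chosen with earlier results of these data known. Named were all members at an FDR under 0.05 and, per class, up to 3 of the deepest events (1 per gene) with a level of 0.1 to 0.9. Exons were matched to GENCODE release 29 by length and spacing (513 of 538 member events, 95.4%). The quasi-binomial model used R 4.3.3 and limma 3.58.1, with its dispersion moderated by squeezeVar over all tested events and never under 1, and Benjamini-Hochberg adjustment over all tested events. This model was tested on simulated data. Where libraries scattered beyond binomial noise, more of its calls were false than the threshold allows, and under 1 kind of scatter most were false. A second version, with the dispersion prior fitted only to deep events (at least 50 effective reads), was written after the first version's counts on the real reads and on simulated reads had been seen. It made fewer false calls on the simulated data but recovered few or no changed events where libraries scattered. At an adjusted p under 0.05, without a size limit, the first version called 16 of all tested events and the second 0; each called 0 members. The first version is reported as the main one because it is the one planned. Limma on log2 ratios (pseudocounts of 0.5 and 1) was a further alternative. Quasi-binomial and limma p-values set a difference against the scatter between these libraries, moderated over all tested events. In the quasi-binomial model, a set whose libraries are both at 0 or both at 1 adds nothing to that scatter. Wilson intervals cover counting error only.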

Additional observations from a re-analysis of the deposited data

How the results depend on the processing

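The number of member events called from the authors' test, 7, was 11 with a minimum of 10 reads, 3 with 50 and 14 with none. It was 12 at a difference of at least 0.05, 3 at 0.2, 3 at an FDR under 0.01, and 7 with p-values adjusted over tested events only. With 1 event per exon, the deepest, 2 remained (the POLR2J4 132-nt and GTF2H2C events), and both lie in genes with near-identical copies; without such genes, a choice made after seeing the data, 4 remained. Requiring sets that do not overlap left 4. With each library left out in turn, 4 to 7 called events kept a difference of at least 0.1 in their direction, the lowest without library 1 of the first set. At the main setting 2.71% of all tested events were called. The shares of all tested events at the other settings of the authors' test are not given here, so these counts describe members only. The quasi-binomial model called 0 members under every read minimum, with limma at both pseudocounts and with the dispersion prior fitted to deep events, the version added after seeing the data; the unadjusted p of that version was under 0.05 for 6 members (1.12%), against 2.25% of all tested events. With each library left out it called 0 to 3 members, the highest without library 1 of the second set, when it also called 1051 of all tested events; the lone library of a set is then assumed to vary like the other set. No paired analysis was possible because the table's cells carry no replicate numbers. Summing the reads of a set moved none of the 37 named differences beyond the spread between libraries, and dropping the length correction moved 3. Depth limits the shallow calls: a skipping form with 0 of 12 reads does not show that the form is absent.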
